A study of Mus musculus and Homo sapiens with 41 samples.

Results

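Wide H2AK119ub domains of wild-type (WT) mouse embryonic stem (mES) cells are the subject here. H2AK119ub is histone H2A carrying ubiquitin on a lysine of its C-terminal tail, and it was mapped by CUT&Tag, in which an antibody-directed transposase cuts and tags the DNA around the mark. A base on chromosomes 1 to 19, X or Y counted as marked when a peak covered it in at least 2 of the 3 untransfected WT H2AK119ub libraries, and touching bases were merged into regions. Regions of 1500 bp or more were kept. This gave 58 wide domains among 31052 regions, with a summed length of 104 kb, or 0.841% of the 12337 kb in all regions. The domains were thus chosen by the peaks of these 3 libraries, whose values over them are given as a description and were not tested.

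The series held 41 libraries, of which the 27 mouse H2AK119ub libraries in 9 groups of 3 and 2 BAP1 libraries of WT mES cells were used. The mES cells were WT or Tet2 KO lines received from another laboratory, grown in serum and LIF with 3 μM CHIR99021 and 1 μM PD0325901. They were either untransfected (WT, Tet2 KO) or treated with siRNA (WT with the control siNC, Tet2 KO with siNC, siMbd6 or siNsun2), and WT cells with siMbd6 or siNsun2 were not analysed here. The haematopoietic stem and progenitor cells (HSPCs) were Lin- c-Kit+ bone marrow cells of mice 6 to 8 weeks old, WT with shNC or Tet2 KO with shNC or shMbd6, cultured for 7 days. Each mES cell genotype rests on a single line, so genotype and line cannot be told apart, and Lin- c-Kit+ cells are a mixture of progenitors. The study describes its genome-wide data as coming from biological replicates, but the labels do not say which culture or animal each library came from, so p-values measure the spread between these libraries. Libraries listed between 0.648 and 17 Mb in peaks, and their sequencing depth is unknown.

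H2AK119ub is written by Polycomb repressive complex 1 through RING1A or RING1B and is best known at the CpG-rich promoters of silent developmental genes such as the HOX clusters. BAP1, the catalytic subunit of the Polycomb repressive deubiquitinase, takes the ubiquitin off. MBD6 is a partner of that complex, TET2 oxidizes 5-methylcytosine in DNA and RNA, and NSUN2 writes 5-methylcytosine in RNA. LINE-1 elements are retrotransposons present in the mouse genome in very many near-identical copies, and young mouse subfamilies such as L1MdTf carry promoters built of tandem monomers.

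Most wide domains were made of repeated sequence. The middle 300 bases of 46 of the 58 domains (79.3%) had more than 1 close copy in the GRCm38 genome (at least 90% identity over at least 90% of the 300 bases), and 25 (43.1%) had 100 or more. Of the 499 regions of 1000 to under 1500 bp, 49.3% had more than 1 copy and 39.1% had 100 or more. Domains were placed in 7 sequence classes. An L1MdTf bisulfite amplicon of the study (both primers matched with at most 2 mismatches to the C-to-T converted sequence) lay in 16 domains, together 26 kb. A second family of 7 domains (11.4 kb), alike among themselves, was fully or nearly fully soft-masked as repeat in the reference and repeated with a period of 205 to 206 bp, but matched no amplicon and is left unnamed. Another 9 domains matched themselves over at least 70% of their length at a shift of 20 to 699 bp (other tandem), 14 were repeated otherwise, 10 were single copy, 1 was the rRNA locus of chromosome 17, and 1 was a nuclear copy of mitochondrial DNA.

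The sequences below were read from the + strand of GRCm38, with each CG dinucleotide in capitals, and they show the middle 300 bases of 4 domains. The first is the widest L1MdTf domain (chrX:14571330-14571629, 22 CpG), which was unlisted in every HSPC library. The second is the widest domain of the second family (chrX:117088628-117088927, 22 CpG), also unlisted there.
L1MdTf domain on X: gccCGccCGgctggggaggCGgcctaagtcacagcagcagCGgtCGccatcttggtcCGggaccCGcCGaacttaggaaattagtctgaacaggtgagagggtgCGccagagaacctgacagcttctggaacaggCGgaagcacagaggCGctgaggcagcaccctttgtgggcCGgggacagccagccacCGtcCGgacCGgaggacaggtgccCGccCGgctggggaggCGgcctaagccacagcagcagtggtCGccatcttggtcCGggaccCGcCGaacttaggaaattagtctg
second-family domain on X: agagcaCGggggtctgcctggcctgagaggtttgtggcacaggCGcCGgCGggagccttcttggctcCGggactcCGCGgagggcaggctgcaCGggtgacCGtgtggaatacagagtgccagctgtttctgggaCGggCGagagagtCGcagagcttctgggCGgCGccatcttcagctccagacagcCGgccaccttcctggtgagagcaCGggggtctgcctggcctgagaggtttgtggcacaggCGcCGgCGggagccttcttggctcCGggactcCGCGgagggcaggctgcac

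The other two domains stayed listed at more than 97% of their length in every H2AK119ub and BAP1 library. The first of them lies in the lincRNA 2700054A10Rik (chr17:13551755-13552054) and had 0 CpG in these 300 bases. The second covers the start of the predicted gene Gm21738 (chr14:19417800-19418099) and had 5. Both are repeated sequence, 97.8% and 85.9% soft-masked, and their middle 300 bases had 63 and 125 close copies.
2700054A10Rik domain: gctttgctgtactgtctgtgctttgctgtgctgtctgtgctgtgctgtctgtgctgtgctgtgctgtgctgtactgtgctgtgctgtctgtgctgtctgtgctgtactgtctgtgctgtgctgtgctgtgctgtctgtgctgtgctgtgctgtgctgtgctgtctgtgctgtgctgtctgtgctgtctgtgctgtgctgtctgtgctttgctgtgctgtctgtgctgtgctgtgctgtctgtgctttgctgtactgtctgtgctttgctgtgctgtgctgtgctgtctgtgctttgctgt
Gm21738 domain: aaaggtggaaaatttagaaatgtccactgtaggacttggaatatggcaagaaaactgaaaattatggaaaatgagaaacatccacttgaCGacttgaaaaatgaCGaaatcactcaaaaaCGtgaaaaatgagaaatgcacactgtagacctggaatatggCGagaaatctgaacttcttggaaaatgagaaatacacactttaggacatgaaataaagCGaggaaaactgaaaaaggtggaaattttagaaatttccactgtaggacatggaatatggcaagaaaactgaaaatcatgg

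The L1MdTf domains had a median GC content of 65.0%, a CpG observed-to-expected ratio of 0.588 and were 100% soft-masked, and their middle 300 bases had 1467 to 5474 close copies (median 4157). The second family was close to this in composition (GC 66.7%, CpG ratio 0.672, 869 to 1083 copies). The 9 other tandem domains had a median CpG ratio of 0.0639 at 59.1% GC, but their ratios ran from 0 to 0.560, and those at Tmem125 (0.560), in the Muc19 transcript (0.292) and in Stam2 (0.217) were above the 0.190 of the chromosomes. Wide domains as a whole (GC 60.4%, CpG ratio 0.506) were composed much like the narrower regions (59.0%, 0.515), but 54.4% of their bases were soft-masked against 21.6%. The chromosomes themselves held 41.7% GC. L1MdTf made up the same share of wide domains (27.6%) as of regions of 1000 to under 1500 bp (27.5%), and 6.85% of all narrower regions. Both primers had to lie inside a region, and narrower regions had a median of 353 bp, so short L1MdTf regions could be missed. None of the other 16 repeat families of the study's amplicons, IAPEz-int among them, had an amplicon in a wide domain. In the narrower regions IAPEz-int matched only 2, and L1MdA, L1MdGf, L1MdV and MERVL matched 0. An amplicon marks 1 short part of an element, so this does not show that these families are absent from wide domains.

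**Figure D1:**
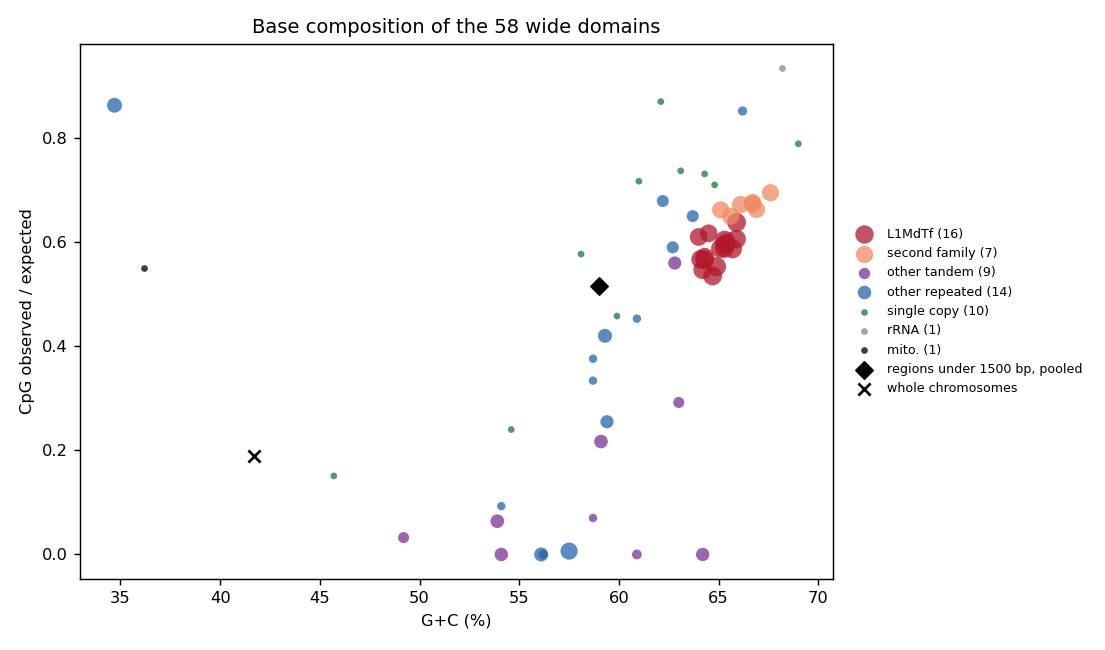
GC content (percent, x axis) against the CpG observed-to-expected ratio (y axis) of the 58 wide domains, 1 point per domain, coloured by sequence class and larger with more copies, with the narrower regions and the chromosomes as pooled marks. L1MdTf and second-family domains lie together at high GC, most other tandem domains lie near a CpG ratio of 0, and the Gm21738 domain stands alone at 34.7% GC and a ratio of 0.863.

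Because so many of these sequences are near-identical, reads from 1 copy can be placed at another, and the deposited peaks cannot say which copies carried the mark. The chromosome 1 domain (chr1:24611632-24616117), the widest at 4486 bp, aligned over its whole length to bases 6461 to 10945 of the 16299 bp mitochondrial genome at 100% identity, so reads from mitochondrial DNA and from this copy cannot be told apart. Members of a family share sequence and are not independent observations. The 3 domains on chromosome 6 near Pdia4 also matched one another, as did the 2 at the Dux locus on chromosome 10.

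Few domains lay at promoters. A protein-coding transcription start site (TSS, GENCODE) lay inside 10 of the 58 domains (17.2%) and inside 18.4% of the narrower regions, and within 1 kb of 12 domains (20.7%) and 29.8% of the narrower regions. The median distance to the nearest TSS was 39715 bp for wide and 13348 bp for narrower regions. By place, 29 domains were intergenic, 9 in an intron, 4 in an exon without a TSS and 6 in noncoding genes. Of all 21911 protein-coding genes, 11 (0.0502%) had a TSS in a wide domain and 28.6% in any region, so a list of up to 133 genes would seldom hold 1 in a wide domain. Of 18 gene lists of that size or smaller, the clustered protocadherins had 1 of 56 genes there (Pcdhac2, a neuronal adhesion protein) and the other 17 lists had 0. The HOX clusters had 0 of 39 TSS in a wide domain and 7 in any region, of which the widest was 1324 bp. Neither count sets a list apart from genes at large.

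The wide domains were 1502 to 4486 bp wide (median 1620 bp), and 49 of them were under 2000 bp, 6 from 2000 to under 3000 bp and 3 above. All regions had a median of 353 bp. In 48 domains each WT library listed a single peak, and 4, 37 and 41 domains were listed from end to end in WT replicates 1, 2 and 3. Peaks over the domains were not especially strong. Their median fold enrichment, as deposited, was 3.49 to 4.35 per library, below the 4.05 to 5.55 of all peaks of the same library.

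The width limit cut through a continuum. The 3 domains just inside it were that over the TSS of Sp4 (1502 bp, a zinc-finger transcription factor), an L1MdTf domain in an intron of Sult2a3 (1503 bp) and a repeated domain with Gpm6a as its nearest gene (1511 bp). Just outside it lay regions of 1492 bp in Tmem132d and 1493 bp with Atg7 nearest. In the Tet2-KO siNC group they were listed at 11.7%, 0% and 97.2% inside the limit and at 32.9% and 28.4% outside it.

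Wide domains stayed listed over more of their length than narrower regions in every other mouse group. In WT replicates 1, 2 and 3, 78.6%, 98.0% and 98.4% of the summed domain length was listed, which the selection itself sets. The untransfected Tet2-KO libraries listed 80%, 88.0% and 91.2%, and the WT siNC libraries 77.8%, 92.0% and 92.7%. The siRNA-treated Tet2-KO libraries were lower than all of these. They listed 49.2%, 62.5% and 65.7% with siNC, 49.5%, 60% and 67.6% with siMbd6, and 47.8%, 62.3% and 60.5% with siNsun2. The HSPC libraries were lower again, at 36.8%, 39.6% and 37.7% in WT shNC, 28.8%, 28.9% and 30.1% in Tet2 KO shNC, and 38.7%, 42.3% and 38.1% in Tet2 KO shMbd6. In order, the 2 highest groups after WT (WT siNC, 87.5% ± 8.4, and Tet2 KO, 86.4% ± 5.78, SD, n = 3) overlapped, the 3 siRNA-treated Tet2-KO groups (59.1% ± 8.75, 59.0% ± 9.09 and 56.9% ± 7.93) overlapped, and so did shMbd6 (39.7% ± 2.29) and WT shNC HSPCs (38.0% ± 1.41), above Tet2 KO shNC HSPCs (29.3% ± 0.714).

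The narrower regions fell much further. Their listed share was 71.4% ± 8.60 in untransfected Tet2-KO and 74.3% ± 11.8 in WT siNC mES cells, then 15.0% ± 5.30 with siNC, 18.5% ± 6.25 with siMbd6 and 13.8% ± 4.31 with siNsun2 in Tet2-KO cells, and 9.89% ± 0.746, 2.69% ± 0.137 and 16.8% ± 0.791 in the WT shNC, Tet2 KO shNC and Tet2 KO shMbd6 HSPCs. Regions of 1000 to under 1500 bp lay between these and the wide domains. Untransfected Tet2-KO libraries listed 72.9%, 87.9% and 88.8% of their length, and WT siNC libraries 67.1%, 88.3% and 89.3%. Tet2-KO siNC libraries listed 19.5%, 38.2% and 39.8%. L1MdTf domains were near the narrower regions in Tet2-KO siNC cells, at a mean of 17.2%, and below them in HSPCs, at 0%. The groups also differed in how much was listed in all. Untransfected Tet2-KO libraries listed 11.6 to 16.9 Mb and Tet2-KO siNC libraries 1.82 to 4.30 Mb, and the part of this in the domain values was not tested. Replicate 1 listed the least in each of the 6 mES cell groups.

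**Figure D2:**
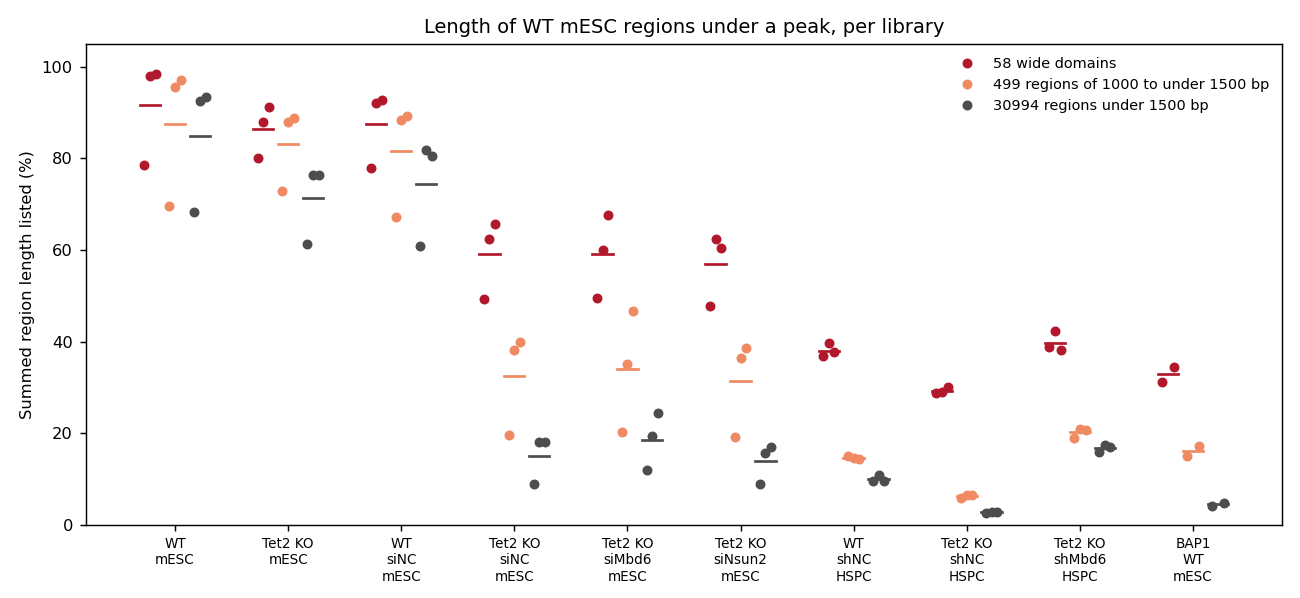
Percent of summed region length listed in each library (y axis, points) for wide domains and narrower regions, by group (x axis), with those of 1000 to under 1500 bp also drawn alone and a line at each group mean. Wide domains sit above narrower regions in every group, from 91.7% against 84.8% in WT to 29.3% against 2.69% in Tet2 KO shNC HSPCs.

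Taken base by base in at least 2 of 3 libraries, 89.5% of the domain length stayed listed in Tet2 KO, 90.8% in WT siNC, 58.9%, 57.8% and 55.8% in the siNC, siMbd6 and siNsun2 Tet2-KO mES cells, and 38.5%, 29.1% and 39.7% in the WT shNC, Tet2 KO shNC and Tet2 KO shMbd6 HSPCs. All 8 other groups shared 27.6 kb, or 26.6% of the domain length and 1.33% of that of the narrower regions. This core touched 20 domains, covered at least 50% of 13 and at least 95% of 7. The 5 other mES cell groups shared 49.7% of the domain length and the 3 HSPC groups 27.6%.

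Domains listed throughout were repeats or the rRNA locus, which had 1 copy in the chromosomes searched. Copies missing from the assembly were not counted, so this locus is not shown to be unique. In 9 domains no group mean was under 90%. The 6 with the highest lowest group mean were a tandem repeat with Tmem125 as its nearest gene (chr4:118547172-118548737, lowest mean 99.2%), a repeat with Zfp825 nearest (chr13:74528588-74530747, 99.0%), the Gm21738 domain (98.9%), the 2700054A10Rik domain (98.6%), a tandem repeat with 2010315B03Rik nearest (chr9:124256335-124257953, 98.3%) and the rRNA locus (chr17:39843104-39846508, 94.7%). The rRNA locus was listed at 86.0%, 99.3% and 98.8% in WT shNC HSPCs and at 93.2% to 100% in every other H2AK119ub library. The mitochondrial copy was listed at 97.5% or more in every mES cell library and at 60.9% to 92.6% in HSPCs. The Zfp825 domain was listed at 97.2% or more in all 29 libraries, BAP1 included.

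**Figure D3:**
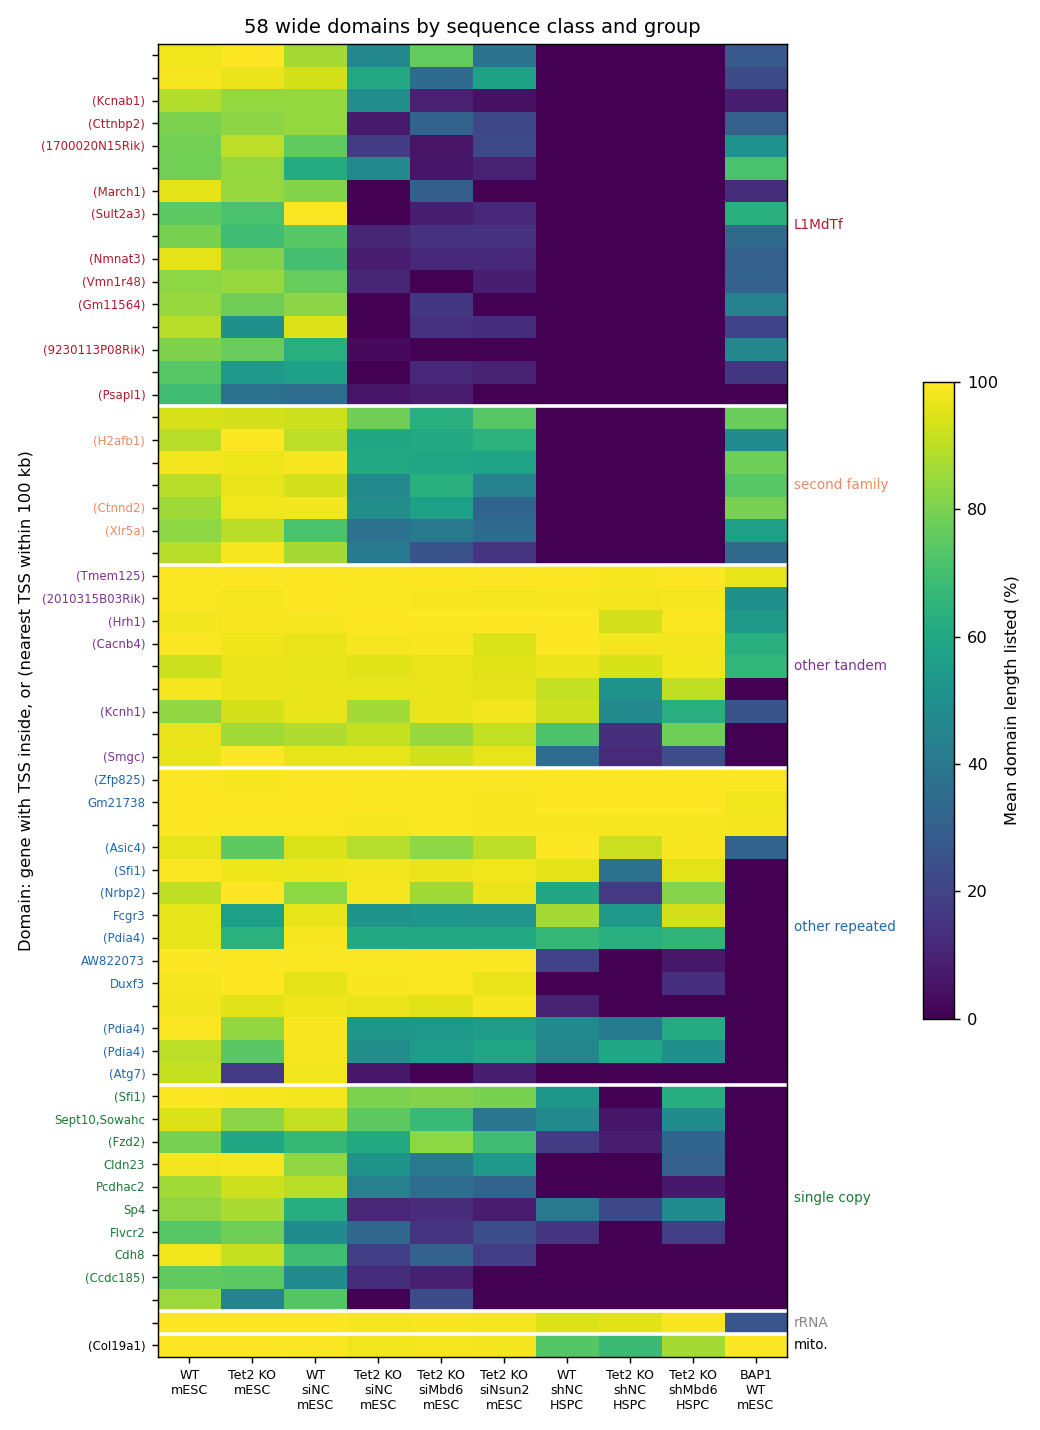
Group mean percent of length listed (colour, 0 to 100) for the 58 wide domains (rows, by sequence class, named by the gene whose TSS lies inside or, in brackets, the nearest TSS if within 100 kb) in the mouse H2AK119ub groups and BAP1 (columns). L1MdTf and second-family rows are 0 in the 3 HSPC columns, and most other tandem rows stay high across the H2AK119ub columns.

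L1MdTf and second-family domains were listed in mES cells alone among the cells measured. All 16 L1MdTf domains and all 7 second-family domains were at 0 in all 9 HSPC libraries, and they made up 23 of the 27 domains at 0 there. The other 4 were the domains at Ccdc185 and Cdh8 and those with Parp11 and Atg7 nearest. Most narrower regions were unlisted in HSPCs too. Of these, 84.5%, 95.4% and 75.1% were at 0 in all WT shNC, Tet2 KO shNC and Tet2 KO shMbd6 libraries. The 2123 narrower L1MdTf regions were listed at 0.234% ± 0.152 in WT shNC HSPCs and the other narrower regions at 10.9% ± 0.810. An unlisted stretch is one where no peak passed the authors' threshold in that library, which does not show that the mark was absent.

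Within mES cells the L1MdTf share was much lower in the siRNA-treated Tet2-KO groups, as was the share of narrower regions. Narrower regions without an L1MdTf amplicon averaged 74.1% ± 10.9 in WT siNC and 15.3% ± 4.85 in Tet2-KO siNC cells. The L1MdTf domains averaged 76.3% and 17.2% in the same groups. The 16 domains were listed at 61.5%, 93.6% and 98.1% in WT, 59.2%, 82.0% and 88.8% in Tet2 KO and 54.0%, 83.0% and 92.0% in WT siNC replicates 1 to 3. They were listed at 4.13%, 18.2% and 29.3% with siNC, 4.99%, 12% and 36.0% with siMbd6 and 1.52%, 26.6% and 14.5% with siNsun2 in Tet2-KO cells, with no overlap with the WT siNC libraries. The second family was listed at 78.9%, 96.9% and 93.8% in WT siNC and at 13.5%, 77.1% and 69.4% in Tet2-KO siNC cells, where replicate 1 stood far below the other two. L1MdTf peaks were weak by the authors' q-value. When peaks were kept at a −log10 q of at least 5, the WT siNC group listed 4.89% of the L1MdTf length and Tet2-KO siNC 0%.

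**Figure D4:**
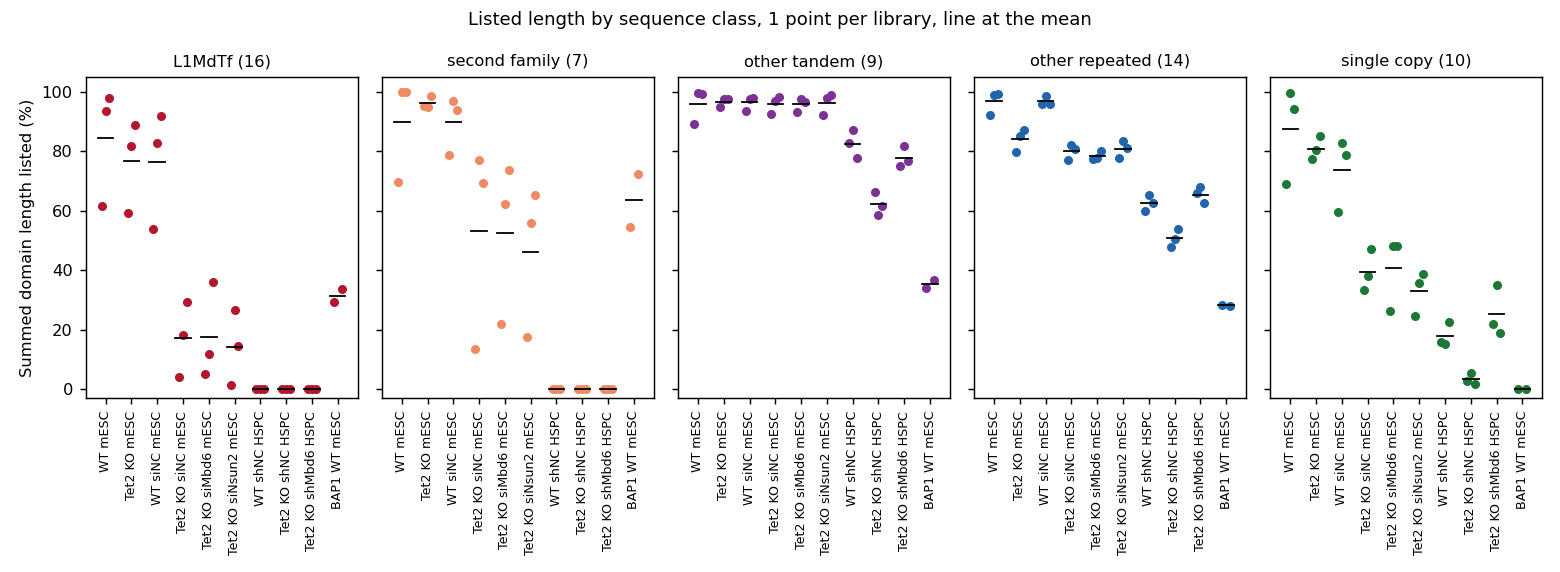
Percent of summed length listed per library (y axis, points) by group (x axis) for the 5 sequence classes of more than 1 domain, with a line at each group mean. L1MdTf is at 14.2% to 17.7% in the siRNA-treated Tet2-KO mES cell groups and at 0 in HSPCs. Other tandem domains stay at 95.9% or above in every H2AK119ub group of mES cells and are at 35.4% with BAP1.

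Other tandem and other repeated domains kept more of their length. Other tandem domains averaged 96.5% ± 2.41 in WT siNC and 95.9% ± 3.02 in Tet2-KO siNC mES cells, and 82.6% ± 4.81, 62.2% ± 3.97 and 77.8% ± 3.47 in the WT shNC, Tet2 KO shNC and Tet2 KO shMbd6 HSPCs. In Tet2 KO shNC HSPCs only 5 of the 9 were at 50% or more in all libraries, and that with Tmem121 nearest averaged 13.7%. The widest of them (chr15:91906948-91910236, in the Muc19 transcript) was low in both, with 37.5%, 53.8% and 15.4% in WT shNC HSPCs and 10.5%, 10.8% and 15.6% in Tet2 KO shNC HSPCs. Other repeated domains averaged 96.9% ± 1.53 in WT siNC and 80.1% ± 2.61 in Tet2-KO siNC cells. Single-copy domains averaged 73.7% ± 12.3 in WT siNC and 39.5% ± 7.07 in Tet2-KO siNC cells, where the second family averaged 53.3% ± 34.7, and they were at 18% ± 4.15, 3.40% ± 1.95 and 25.3% ± 8.68 in the WT shNC, Tet2 KO shNC and Tet2 KO shMbd6 HSPCs.

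The domains at gene starts fell into a repeated and a single-copy set. Duxf3 (a homeobox activator of the early embryonic genome) and its neighbour AW822073 lie in the Dux repeat on chromosome 10. Both domains were listed at 87.6% or more in all 18 H2AK119ub libraries of mES cells. In HSPCs the Duxf3 domain was at 0% in WT shNC and Tet2 KO shNC libraries and at 17.8%, 22.7% and 0% with shMbd6, and the AW822073 domain was at 18.5%, 0% and 41.9% in WT shNC. The domain over Fcgr3 (a low-affinity IgG receptor of myeloid cells) was the only wide domain holding tRNA genes. It was listed at 100%, 90.8% and 98.3% in WT mES cells, 54.5%, 56.6% and 58.4% in Tet2 KO, 95.3%, 98.7% and 94.4% in WT siNC and 45.8%, 56.4% and 53.5% in Tet2-KO siNC cells. In HSPCs it was at 71.7%, 96.4% and 92.1% in WT shNC, 58%, 55.2% and 49.4% in Tet2 KO shNC and 96.6%, 96.9% and 87.5% in Tet2 KO shMbd6. Its Tet2-KO values with control RNA lay below all WT values in both cell types. Limma called 14651 of 21171 tested regions lower without overlap in mES cells with control RNA, and 926 of 4456 in HSPCs.

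The single-copy promoters were those of Sowahc with Sept10 (a septin), Flvcr2 (a membrane transporter), Sp4, Pcdhac2, Cldn23 (a claudin of tight junctions) and Cdh8 (a neuronal cadherin), with Fzd2 (a WNT receptor) and Ccdc185 within 453 and 147 bp of a domain. The Pcdhac2 domain was listed at 68.4%, 100% and 100% in WT siNC and 43.3%, 47.0% and 40.9% in Tet2-KO siNC cells, with no overlap. It was at 0% in HSPCs except 21.0% in 1 shMbd6 library. The Cdh8 domain was listed at 68.4%, 76.8% and 63.3% in WT siNC and at 0%, 0% and 56.2% in Tet2-KO siNC cells, and at 0% in all HSPC libraries. The Cldn23 domain was at 52.9%, 98.0% and 99.6% against 37.4%, 33.3% and 84.5%, which overlap. The Fzd2 domain was at 49.3%, 55.0% and 96.4% in WT siNC and 60.3%, 71.9% and 50.0% in Tet2-KO siNC cells, with no separation. The Sp4 domain was at 49.9%, 69.0% and 68.1% against 0%, 0% and 35.0%, with no overlap, the Flvcr2 domain at 40.9%, 64.2% and 40.7% against 39.1%, 26.4% and 34.8%, with no overlap, and the Sowahc domain at 97.8%, 85.5% and 90.6% against 77.8%, 72.1% and 75.2%, with no overlap. In all 8 of these domains the Tet2-KO siNC mean was below that of WT siNC, with differences from -6.15 (Fzd2, SE 22) to -50.8 points (Cdh8, SE 15). Limma called those of Sp4, Cdh8 and Pcdhac2. Of all 21171 tested regions it called 71.5% lower, and 14651 were called lower without overlap between groups. A lower value was thus not particular to these promoters. Whether the promoters differed in this from one another was not tested.

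Whether TET2 loss goes with less H2AK119ub was asked of Tet2 KO siNC against WT siNC mES cells, and the wide domains were lower in these siRNA-treated Tet2-KO cells. Untransfected Tet2-KO cells listed 86.4% ± 5.78 of the domain length, which overlaps WT siNC, so a lower share was seen in the siRNA-treated Tet2-KO groups and not in the untransfected one. The summed listed share fell from 87.5% ± 8.4 to 59.1% ± 8.75 (SD, n = 3), a difference of -28.4 percentage points without overlap between groups (exact two-sided permutation p = 0.1, the smallest that 3 against 3 allows). Limma with Benjamini-Hochberg adjustment over 21171 regions called 20 of 58 wide domains lower and 0 higher, where 71.5% of all tested regions were called lower and 0.831% higher. A region can pass the filter of 3 listed libraries through the group where it is high, but all 58 domains passed it. Without the filter limma called 20 of the 58 domains and 19541 of all 31052 regions lower, and the median difference was -32.5 points over wide domains and -64.2 over all regions. By class, 11 of 16 L1MdTf, 5 of 14 other repeated and 4 of 10 single-copy domains (Sp4, Cdh8, Pcdhac2 and the one with Parp11 nearest) were called, and none of the 7 second-family or 9 other tandem domains.

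L1MdTf domains were among those with the largest called differences, though 11 of 16 called lower was near the 71.5% of all tested regions. That in an intron of Sult2a3 (chr7:14086750-14088252) was at 98.2%, 100% and 100% in WT siNC and at 0% in all 3 Tet2-KO siNC libraries (difference -99.4 points, SE 9.58, adjusted p = 9.05e-06 by limma). The L1MdTf domain with Gm11564 nearest (chr11:99825003-99826566) went from 63.0%, 86.4% and 99.0% to 0% in all 3 (-82.8, SE 9.77, limma adjusted p = 4.19e-05). A repeated domain that is not L1MdTf, with Atg7 (an autophagy enzyme) nearest (chr6:114623673-114625376), went from 99.6%, 99.9% and 95.5% to 0%, 20.1% and 0% (-91.6, SE 7.42, limma adjusted p = 2.36e-06). This last domain was also at 0%, 29.7% and 21.5% in untransfected Tet2-KO cells.

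Another pattern, picked out after its values were seen, was a partial loss with little spread. The Pdia4-side domain chr6:47771447-47773189 was listed at 97.3%, 100% and 99.7% in WT siNC cells and 62.4%, 60.2% and 61.3% in Tet2-KO siNC cells (-37.7, SE 1.57, limma adjusted p = 1.27e-08). It was at 63.6%, 63.9% and 64.5% in untransfected Tet2-KO cells, within 59.1% to 62.9% with siMbd6 and siNsun2, and at 60.5% to 68.0% in all HSPC libraries, WT included. Its sequence relatives chr6:47739243-47740858 (-46.4, SE 1.78) and chr6:47743777-47745381 (-49.1, SE 4.73) and the Fcgr3 domain (-44.2, SE 3.08) were likewise about midway in Tet2-KO siNC cells, at group means of 52.8%, 49.6% and 51.9%. In untransfected Tet2-KO cells the relatives varied more, at 56.1%, 97.3% and 97.5% for the first and 62.6%, 62.2% and 98.1% for the second. In each of these 4 domains every Tet2-KO siNC library listed less than any WT siNC library. The same separation with a limma call was seen in 14651 of all 21171 tested regions, so it does not set these 4 apart.

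The direction of the summed difference depended on the scale. Wide domains took 0.656% of the listed bases of WT siNC libraries and 1.97% of those of Tet2-KO siNC libraries, a difference of 1.31 points in the opposite direction (exact permutation p = 0.1). With each library scaled to the same covered length, limma called 10 wide domains higher and 4 lower. The log2 ratio of the listed share of wide domains to that of narrower regions was 0.244 ± 0.0999 in WT siNC and 2.04 ± 0.371 in Tet2-KO siNC libraries (difference 1.79, exact permutation p = 0.1, no overlap). Against the 499 regions of 1000 to under 1500 bp the difference was 0.814 (p = 0.1, exact permutation).

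With Mbd6 or Nsun2 knocked down in Tet2-KO mES cells, limma called no wide domain and the groups overlapped in the summed share. The highest siMbd6 library (67.6%) lay above and the lowest siNsun2 library (47.8%) below the siNC range of 49.2% to 65.7%. The summed share differed by -0.0967 points with siMbd6 (exact permutation p = 1.00) and by -2.26 points with siNsun2 (exact permutation p = 0.500). Limma called 0 of 58 domains with siMbd6, and 0 of 58 had an unadjusted p under 0.05, against 0.0189% of all regions called lower and 0.189% called higher. With siNsun2 it called 0 of 58, against 0.052% of all regions lower and 0.0142% higher. The domain at Sowahc and Sept10, the 1 with an unadjusted p under 0.05, was at 77.8%, 72.1% and 75.2% with siNC and 38.9%, 36.6% and 42.2% with siNsun2, without overlap (difference -35.8, SE 10.8, limma adjusted p = 1). The wide-to-narrow log2 ratio differed by -0.316 (exact permutation p = 0.400) and 0.0464 (exact permutation p = 0.9). All of these comparisons use the same 3 siNC libraries.

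In HSPCs, TET2 loss went with a lower listed share and shMbd6 in Tet2-KO cells with a higher one. Tet2 KO shNC against WT shNC differed by -8.76 points (29.3% ± 0.714 against 38.0% ± 1.41) and shMbd6 against shNC by 10.5 points (39.7% ± 2.29 against 29.3% ± 0.714), each without overlap (exact permutation p = 0.1, the smallest possible). The filter left 27 of the 58 domains and 4456 of all regions, many of which can have passed through the group where they are high, so the counts are a description. Limma called 6 of 27 lower in Tet2 KO, where 20.8% of 4456 tested regions were called lower and 0.224% higher. With shMbd6 it called 8 of 27 higher and 0 lower, where 61.4% were called higher and 0.18% lower. Over all 58 domains the median difference was 0 for Tet2 KO and 0.00716 for shMbd6, and over all 31052 regions it was 0 for both. Both comparisons share the 3 Tet2 KO shNC libraries.

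The same 4 domains headed both HSPC comparisons. The Pisd-ps1 domain (chr11:3127045-3128671) was listed at 93.9%, 98.2% and 95.3% in WT shNC, 23.4%, 33.3% and 55.1% in Tet2 KO shNC and 94.9%, 96.1% and 96.4% in shMbd6 HSPCs (limma adjusted p = 0.00122 and 0.000653). The domain in an exon of Sfi1 (a centrosomal protein; chr11:3184354-3186254) was at 68.4%, 23.7% and 66.8%, then 0% in all 3, then 70.0%, 71.2% and 45.3% (limma adjusted p = 0.0271 and 0.00686). The domain on chromosome 12 with Tmem121 nearest (chr12:113293377-113295229) was at 81.5%, 75.4% and 58.9%, then 41.1%, 0% and 0%, then 58.7%, 91.1% and 84.2% (limma adjusted p = 0.0246 and 0.00777). The domain in an exon of Eppk1 (epiplakin, a cytoskeletal linker; chr15:76102812-76104962) was at 52.7%, 80.8% and 45.4%, then 19.5%, 0% and 30.2%, then 72.5%, 86.2% and 86.2% (limma adjusted p = 0.0360 and 0.00302). These 4 domains were chosen as called and without overlap between groups. That no Tet2 KO shNC library reached the lowest library of the other 2 groups was thus set by the choice. The Sfi1 domain, unlisted in all Tet2 KO shNC libraries, passed the filter only through the other groups. Its adjusted p-values are thus a description. Without the filter limma called 1 of 58 wide domains lower in Tet2 KO and 3 higher with shMbd6. For Sfi1, Tmem121 and Eppk1 the call in Tet2 KO was lost when any of several single libraries was left out.

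These directions too depended on the scale. Tet2 KO shNC libraries listed 0.648 to 0.681 Mb, WT shNC 1.89 to 2.24 Mb and shMbd6 3.43 to 3.95 Mb. As a share of the listed bases, wide domains took 1.97% in WT shNC, 4.57% in Tet2 KO shNC and 1.11% in shMbd6 libraries, so the differences turned to 2.61 and -3.47 points (exact permutation p = 0.1 for each). Scaled to equal covered length, limma called 15 domains higher and 1 lower in Tet2 KO, and 15 lower and 0 higher with shMbd6. The wide-to-narrow log2 ratio rose from 1.94 ± 0.0588 to 3.44 ± 0.0611 in Tet2 KO and was 1.24 ± 0.0708 with shMbd6 (differences 1.5 and -2.20, exact permutation p = 0.1 for each). Within the 10 single-copy domains alone these differences were -0.658 and 0.360 (exact permutation p = 0.300 and 0.400). The difference between the mES cell and HSPC effects was -19.6 points for TET2 loss and -10.6 points for Mbd6 depletion (permutation p = 0.200 and 0.215, both 0.215 after adjustment over 2). On the log2 scale the TET2 effects were -0.573 in mES cells and -0.378 in HSPCs (difference -0.195, permutation p = 0.575). Those of Mbd6 depletion were -0.00293 and 0.440 (difference -0.443, permutation p = 0.0950, 0.190 after adjustment).

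BAP1 peaks of WT mES cells covered more of the wide domains than of the narrower regions. The 2 BAP1 libraries listed 31.2% and 34.4% of the wide-domain length and 4.17% and 4.72% of that of the narrower regions, with 24 domains at 0 in both and 11 at 50% or more in both. All 10 single-copy domains were at 0 in both libraries, as were 94.1% of the narrower regions. L1MdTf domains were at 29.4% and 33.6%, second-family domains at 54.7% and 72.5%, other tandem domains at a mean of 35.4% and the mitochondrial copy at 99.6% and 99.8%. Among narrower regions, those with an L1MdTf amplicon were at 28.4% ± 2.81 and the others at 1.93% ± 0.134 (SD, n = 2). No control library for BAP1 was used here, so how much of this any antibody would give on repeated sequence was not tested.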

How the data were processed

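The authors trimmed the CUT&Tag reads with Trimmomatic 0.39, aligned them by Bowtie2 2.4.1 against a joint mouse and Drosophila genome, removed duplicates with Picard and called broad peaks per library with MACS2 (broad cutoff 0.01). The deposited peak lists give, for each peak, a fold enrichment (a ratio) and a −log10 q, both computed by the authors. Read counts are not in these lists, the spike-in does not act on them, and depth is unknown. Bowtie2 reports 1 best placement per read, which in repeats may be any of several copies.

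Members and gene lists were chosen with earlier results of these data known. Python 3.11.15, NumPy 2.4.6 and SciPy 1.17.1 served for regions, listed lengths and genes (GENCODE), sequences were read with pysam 0.24.0, and copies were counted with blastn 2.17.0 (at least 90% identity). Summed shares were compared by exact two-sided permutation tests, 3 against 3 libraries. Regions listed in 3 or more libraries were tested singly on the percent of length listed with limma 3.58.1 (R 4.3.3), 1 model for the siRNA-treated mES cells and 1 for the HSPCs, Benjamini-Hochberg adjusted over all regions tested and called at 0.05. The interval functions and the limma step were tested on simulated data. The domains named were the 12 widest, the 6 with the highest lowest group mean, up to 4 called domains a comparison and direction with the largest difference and no overlap, those of the gene lists and the 3 on each side of the width limit, of which 2 domains or regions are not reported here. No domain was at 0 in all 9 siRNA-treated Tet2-KO libraries and at 50% or more in all WT siNC libraries, and domains at gene starts, the Fcgr3, Pdia4-side and Muc19 domains and others named beyond this rule were chosen after their values were seen. The 12 human libraries were not used here. Alternatives were another definition of members, another width, a −log10 q of at least 5, other scales, a replicate block and each library left out.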

Additional observations from a re-analysis of the deposited data

How the results depend on the processing

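Depth is unknown and a peak list has a threshold, so an unlisted domain is not shown to lack the mark, and no p from 3 against 3 libraries can go below 0.1. Many regions are listed at exactly 0 or 100%, which leaves small residual spreads in limma, and without a filter on low values more than 50% of the HSPC regions had none, so those calls are unreliable. Members of a repeat family share sequence. The alternatives on sequence class and reference regions were chosen after seeing the data. The cause of the changes below was not tested.

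The domains themselves depended on the definition. Bases covered in 3 of 3 WT libraries gave 21 domains (42.3 kb), peaks with a −log10 q of at least 5 gave 29 (55.8 kb), and leaving out 1 WT library gave 21 (without replicate 2) to 48 domains, or 42.5 to 87.3 kb, with 23 domains (45.5 kb) without replicate 3. For the summed share, counting wide domains as a share of each library's own listed bases turned the direction for Tet2 KO in mES cells (1.31), Tet2 KO in HSPCs (2.61) and shMbd6 (-3.47). The small siMbd6 difference turned with a −log10 q of at least 5 (1.48), joined gaps (1.14), a limit of 1000 bp (1.26) and single-copy domains alone (1.33), and ranged from -5.06 to 4.68 with single libraries left out. That of siNsun2 turned with a −log10 q of at least 5 (0.756) and a limit of 3000 bp (0.206), and ranged from -7.23 to 2.28. Left-out libraries gave -33.3 to -23.4, -9.37 to -7.99 and 9.16 to 11.3 for the other 3 comparisons. The wide-to-narrow log2 ratio turned for siNsun2 with single-copy domains (-0.167), in percentage points (-1.06), against regions of 1000 to under 1500 bp (-0.00710) and within a left-out range of -0.122 to 0.260, for Tet2 KO in HSPCs with single-copy domains (-0.658) and in percentage points (-1.56), and for shMbd6 with single-copy domains (0.360).

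Of 20 domains called in Tet2-KO siNC mES cells, a −log10 q of at least 5 left 9, and equal covered length gave 14 (10 higher, 4 lower), with 17 to 23 over left-out libraries. For siNsun2 the count was 0 to 1, the 1 without Tet2-KO siMbd6 replicate 1, and for siMbd6 it was 0 throughout. Of 6 called in Tet2-KO HSPCs, no filter left 1, a −log10 q of at least 5 left 1, and equal covered length gave 16 (15 higher). Left-out libraries gave 2 to 6, with 3 without WT shNC replicate 1 or 2 and 2 without Tet2 KO shNC replicate 2. Of 8 called with shMbd6, no filter left 3, a −log10 q of at least 5 left 5, equal covered length gave 15 (all lower), and left-out libraries gave 6 to 8. At equal covered length the Pisd-ps1 domain turned to 17.6 in Tet2 KO and -64.6 with shMbd6, and with shMbd6 the Eppk1 domain turned to -7.15 and the Tmem121-side domain to -0.792. The listed share of L1MdTf domains in Tet2-KO siNC against WT siNC cells shrank from -59.1 to -4.89 with a −log10 q of at least 5. With Tet2 KO in HSPCs, leaving out single libraries raised the limma adjusted p of the Eppk1, Tmem121-side and Sfi1 domains to as much as 0.104, 0.0806 and 0.0768.

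Whether replicate numbers mark shared batches is not given by the labels, and not every pair correlated above 0.1, so the libraries were not treated as paired. Deviations of same-numbered mES cell libraries correlated weakly but positively in all 18 pairs, at 0.00759 to 0.188 and over 0.1 in 3 of them, and those of HSPCs at -0.0209 to 0.00547. By mean correlation, 9 of 12 mES cell libraries and 0 of 9 HSPC libraries were closest to their own number. With the replicate block, limma called 26 (20 without it), 0, 0, 3 and 6 domains in the 5 comparisons, and the summed differences were the same (-28.4, -0.0967, -2.26, -8.76 and 10.5), with a smallest possible sign-permutation p of 0.25.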

Other observations

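Regions of 1000 to under 1500 bp, just narrower than the wide domains, held 137 L1MdTf regions whose listed share followed that of the wide ones. They were listed at 81.0% ± 17.2 in WT siNC and 23.4% ± 14.3 in Tet2-KO siNC mES cells (SD, n = 3), at 1.29% ± 0.502 in WT shNC HSPCs and at 31.4% ± 4.35 in the 2 BAP1 libraries. The 362 other regions of this width were at 81.8% ± 10.8, 35.9% ± 10.2, 19.6% ± 0.318 and 10.4% ± 0.433 in the same groups. With shMbd6, all 137 L1MdTf regions were at 0 in the 3 HSPC libraries, while the other 362 were at 27.7% ± 1.54, against 8.63% ± 0.527 in Tet2 KO shNC.

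The Asic4 intron domain (chr1:75460721-75462377), which has 0 CpG, was listed at 92.4% to 95.5% in WT siNC, 74.4% to 76.9% in untransfected Tet2-KO and 99.3% to 100% in WT shNC HSPCs. Its listed share was higher in all 3 WT shNC HSPC libraries than in any WT siNC mES cell library, a difference that was not tested. Untransfected WT mES cell libraries, at 95.6%, 100% and 93.2%, overlapped these HSPC libraries. Tet2-KO siNC mES cell libraries were at 78.4%, 90.2% and 98.3%.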
